A study of Mus musculus with 11 samples.

Results

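Klf2, Klf4 and Klf5 are 3 Krüppel-like factor genes, chosen by name. All 3 were listed in the bulk RNA-seq table of 12588 genes and in each of the 5 single-cell tables, which hold 21926 to 23139 gene symbols, and all 3 passed the filter on low values. The series measured mouse embryonic stem (ES) cells in 11 libraries. The 6 bulk libraries are Smart-seq2 preparations (full-length cDNA) from about 1000 cells each. They came from wild-type cells with the genotype label Rex1GFPd2, a GFP reporter line for Rex1 (Zfp42), in 2i/LIF medium, 3 held in agarose microgels (gel replicates 1 to 3) and 3 on tissue-culture plastic (plastic replicates 1 to 3). The 5 inDrop single-cell libraries, 1 per condition, count unique molecular identifiers (UMIs). Wild-type E14 cells were grown in serum/LIF on plastic, in serum/LIF in gel, and in 2i/LIF on plastic. The other two lines carry plakoglobin (Jup) under the constitutive CAG promoter, are labelled JupLow and JupHigh here (genotypes PGLOW and PGHIGH), and were grown in serum/LIF on plastic; their parent line is not named in the labels. No group is described by sex or passage, and all media held LIF.

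Krüppel-like factors are zinc-finger transcription factors that bind GC-rich and CACCC elements. In ES cells Klf2, Klf4 and Klf5 support self-renewal with overlapping roles, within the gene circuit of naive pluripotency that also holds Nanog, Esrrb and Tfcp2l1. Klf4 is known as a target of LIF and STAT3 signalling and as a reprogramming factor, Klf5 also responds to LIF, and Klf2 protein is known to be destabilised by MEK and ERK signalling. 2i medium combines inhibitors of MEK and GSK3, so it removes ERK activity and raises Wnt-type signalling. Plakoglobin is an armadillo-repeat protein of cell junctions and a relative of beta-catenin.

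In GRCm38 with GENCODE M21, Klf2 lies on the plus strand at chr8:72319033-72321656 with 1.847 kb of exon sequence. Klf4 is on the minus strand at chr4:55527143-55532466 with 3.049 kb, and Klf5 is on the plus strand at chr14:99298691-99315036 with 5.201 kb. No annotated gene overlaps any of them, and the nearest neighbours are 13773, 18435 and 7055 bases away. The 250 bases before the RefSeq start sites of Klf2 (chr8:72318812-72319061, plus strand) and Klf4 (chr4:55532476-55532725, minus strand), build GRCm38.p6, are shown; these are the members with an entry in the promoter table used, and they were high in the same 2 single-cell libraries described below. Capitals mark each GGGCGG (GC box, a GC-rich element) on either strand and, in Klf2, the single match to the MEF2 consensus.

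Klf2: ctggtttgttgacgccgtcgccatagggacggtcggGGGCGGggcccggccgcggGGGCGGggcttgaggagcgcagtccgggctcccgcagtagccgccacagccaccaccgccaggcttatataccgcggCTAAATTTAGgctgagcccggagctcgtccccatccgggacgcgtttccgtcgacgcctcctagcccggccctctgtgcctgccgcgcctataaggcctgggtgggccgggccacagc
Klf4: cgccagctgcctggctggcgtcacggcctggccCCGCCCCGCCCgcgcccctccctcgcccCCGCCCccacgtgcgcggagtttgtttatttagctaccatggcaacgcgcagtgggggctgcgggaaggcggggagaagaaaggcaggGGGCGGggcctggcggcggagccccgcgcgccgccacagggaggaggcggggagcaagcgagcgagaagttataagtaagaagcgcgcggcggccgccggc

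The Klf2 window held 2 GC boxes and the Klf4 window 4, of which a pair overlaps by a single base; 32.7% of 32851 promoter windows of the same length held at least 1. GC content was 71.2% and 74%, against a median of 52.4% over all windows, with 29 and 32 CpG dinucleotides against a median of 6. The CACCC-type element, searched as GGGTG on both strands, occurred 1 time in Klf2 and not in Klf4, and in 52% of all windows. The MEF2 consensus match in Klf2 is rarer, in 2.92% of windows, and Klf4 had none. Neither window held the STAT consensus TTCNNNGAA (7.02% of windows) or TATAAA (12.4%). These matches describe letters in a window and are not binding data.

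Some facts of the libraries bear on what follows. The bulk libraries held 637235 to 2583256 recovered reads, with plastic replicates 1 and 2 the deepest and plastic replicate 3 the shallowest. Cells were barcodes with at least 1000 UMIs: 725 in wild-type serum/LIF on plastic, 112 in wild-type serum/LIF in gel, 1200 in JupLow, 2153 in JupHigh and 2889 in wild-type 2i/LIF, with median depths of 1731.5 to 2465 UMIs and no cell barcode shared between libraries. The gel table ends inside a row and its 891 complete rows cover only the first part of the alphabetical barcode range, so that condition is held in part. The wild-type serum/LIF plastic table appears to have been counted differently from the others, with Sox2 at 0 UMIs and 0.005086% of UMIs without a gene name, against 0.09085% to 0.4987% elsewhere. All 7 ES cell markers were detected in the other 4 libraries, and 6 of 7 there. Levels are given as CPM, the UMIs of a gene scaled to the total UMIs of the cells in the library. Jup was at 36.7 CPM in wild-type serum/LIF on plastic (95% Poisson interval 28.8 to 46.0), 37.9 (31.1 to 45.7) in JupLow and 47.8 (41.5 to 54.8) in JupHigh. Those intervals overlap, and whether the tags reach the transgene's message was not tested, so both lines are named here by their labels alone. With 1 library per condition, single-cell values carry no test, and an interval there reflects only how many UMIs were counted.

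The bulk libraries ask what the gel does to these genes when the medium is held at 2i/LIF. All 3 genes rose in gel, by 4.402-fold for Klf2, 3.652-fold for Klf4 and 2.611-fold for Klf5 as ratios of mean deposited values, which are read counts scaled by 1 factor per library. Of 7878 genes tested, 1438 (18.3%) were called higher in gel and 1468 (18.6%) lower at an adjusted p of 0.05, so many genes moved in this contrast, and the median log2 difference was -0.02.

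Klf2 was at 143.3, 120.3 and 81.07 in gel replicates 1 to 3 and at 22.86, 26.61 and 28.84 in plastic replicates 1 to 3. The groups did not overlap, although the gel values spread more than the plastic ones (114.9 ± 31.48 against 26.10 ± 3.025, SD, n = 3 each). On the log2(value + 0.5) scale the difference was 2.08 (SE 0.20; limma with Benjamini-Hochberg adjustment over all genes tested, adjusted p = 9.41e-07). Klf4 was at 93.67, 68.76 and 85.20 in gel and at 21.61, 21.91 and 24.29 on plastic (82.54 ± 12.67 against 22.60 ± 1.467, SD, n = 3 each). Again all gel libraries were higher, and the plastic libraries were close to each other. The log2 difference was 1.84 (SE 0.19; limma, adjusted p = 1.72e-06). Klf5 was at 66.58, 41.75 and 53.59 in gel and at 17.87, 16.83 and 27.32 on plastic (53.97 ± 12.42 against 20.67 ± 5.784, SD, n = 3 each). Plastic replicate 3 was the highest of its group, and still lay below all gel libraries. The log2 difference was 1.37 (SE 0.24; limma, adjusted p = 2.72e-04). These values rest on 16 to 127 recovered reads per gene and library. How often all genes tested separate the groups in this way was not counted, so the separation is not read as particular to these 3 genes. The library numbered plastic replicate 2 by its title is numbered 3 in its description, and the title numbers are used here. The labels call the libraries triplicates without saying that they came from separate cultures, so the p-values measure the spread between these samples, which may be technical. In bulk RNA, fewer cells of a type and less RNA per cell cannot be told apart.

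**Figure D1:**
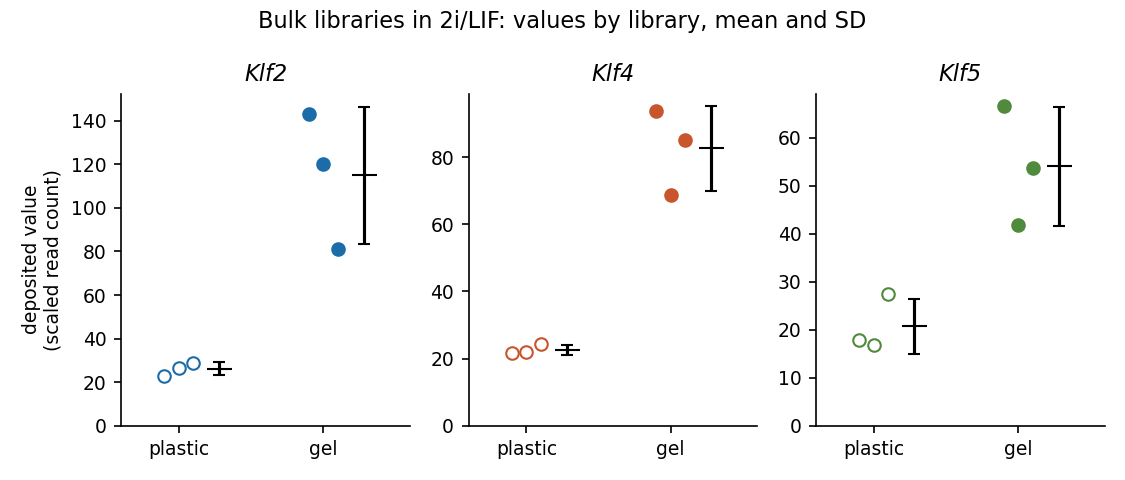
Deposited values (scaled read counts) of Klf2, Klf4 and Klf5 in the 6 bulk libraries in 2i/LIF, 1 point per library, with the mean and SD of 3 libraries beside them; each panel has its own axis from 0. The ratio of means falls from 4.402 for Klf2 to 2.611 for Klf5.

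Per kilobase of exon, mean levels on plastic were 14.13 for Klf2, 7.414 for Klf4 and 3.975 for Klf5, and in gel 62.21, 27.07 and 10.38, so the order of the 3 genes was the same on both supports. Klf2 made up 53.4% to 68.1% of their summed per-kilobase level in gel libraries and 54.0% to 58.0% on plastic, ranges that overlap. Klf5 made up 8.39% to 12.5% in gel and 13% to 18.2% on plastic, which do not overlap. Jup, the gene of the series, was at 90.86 to 102.7 in gel and at 9.559, 9.391 and 30.36 on plastic, where replicate 3 stood apart. Its log2 difference was 2.74 (SE 0.31; limma, adjusted p = 5.94e-06).

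Of 23 other KLF and SP family genes, 15 were listed in the bulk table and 10 tested. In gel 6 rose, 2 fell and 2 were not called, beside 18.3% higher and 18.6% lower of all genes tested. The median log2 difference of the 10 was 0.94. Klf3, a repressor of the family, rose by 1.17 (SE 0.18; limma, adjusted p = 1.09e-04), and Klf9 by 1.63 (limma, adjusted p = 3.56e-04). Sp1, a broadly acting GC-box activator, rose by 1.29 (limma, adjusted p = 6.23e-05) and Klf6 by 0.72 (limma, adjusted p = 0.0248). Sp2 at 2.54 and Sp5 at 1.73 were the other two that rose, named after their values were seen. Klf10 and Klf13 went the other way, with log2 differences of -0.46 (limma, adjusted p = 0.0269) and -0.71 (limma, adjusted p = 7.46e-04). Klf8 and Sp3 were not called (0.19 and 0.27).

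The other naive circuit genes did not share a direction in gel. Of 13, all tested, 4 rose and 4 fell, beside 18.3% and 18.6% of all genes tested, with a median log2 difference of 0.06. Esrrb, an orphan nuclear receptor, was at 156.0 ± 8.681 in gel and 52.82 ± 4.097 on plastic (SD, n = 3 each), a log2 difference of 1.55 (SE 0.14; limma, adjusted p = 4.88e-07). Tfcp2l1 rose by 0.54, while Nanog changed by -0.34, Zfp42 by -0.32 and Dppa3 by -0.68. Tcl1 (0.06), Fgf4 (0.06) and Nr0b1 (0.15), which are among the 8 most abundant of the list, were not called. Tbx3 (1.42), Nr5a2 (1.08) and Pecam1 (-1.01) were the other genes called, named after their values were seen. Among 13 LIF and STAT3 pathway genes, 10 were tested. Beside 18.3% of all genes tested higher and 18.6% lower, 5 of these genes rose and none fell. They included Stat3 itself, at 59.00 ± 4.813 in gel and 32.52 ± 9.043 on plastic (SD, n = 3 each; log2 difference 0.88, limma, adjusted p = 0.0027), and the feedback inhibitor Socs3 (2.32, limma, adjusted p = 0.00167), named after its values were seen. Pim3 (0.94), Bcl3 (1.31) and Pim1 (0.62) were the others, and Pim1 values overlapped between the groups. The LIF receptor subunits Lifr (-0.40) and Il6st (0.44) were not called.

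Among regulators of KLF proteins, 6 of 8 ubiquitin ligases and related genes were tested and 2 fell, beside 18.6% of all genes tested. Fbxw7, a substrate receptor of SCF ligases, was at 25.28 ± 5.615 in gel and 40.05 ± 3.408 on plastic (log2 difference -0.67, limma, adjusted p = 0.0222), and Btrc was at 37.37 ± 8.175 and 72.13 ± 6.539 (-0.96, limma, adjusted p = 7.84e-04; SD, n = 3 each). Of 12 ERK target genes 4 were tested and 3 rose (Etv5 by 0.49, Ier2 by 1.09, Spred1 by 1.03), beside 18.3% of all genes tested. In single cells on plastic, Etv5 and Ier2 were not lower in 2i/LIF than in serum/LIF (0.13 and 0.28), while Spred1 was (-2.23). Dusp6 was too low in bulk to be tested. Only Map2k5 of 8 ERK5 and MEF2 pathway genes was tested and was not called (-0.04). No fibroblast or contractile marker was listed in the bulk table; 3 of 13 endoderm markers were, with a summed value of 225.7 to 255.6 in gel and 201.5 to 232.7 on plastic. Most of that sum was Sparc, which was not called, while Lama1 rose from 12.53 ± 3.687 to 24.74 ± 1.042 (SD, n = 3 each; log2 difference 0.99, limma, adjusted p = 0.0117). The 2 endothelial markers listed, Tek and Vwf, were too low to be tested and summed to 2.748 to 9.823 in gel and 9.974 to 12.14 on plastic. The part of such cells in the result was not tested.

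In single cells the 3 genes did not keep together. Klf2 was at 90.2 CPM in wild-type serum/LIF on plastic (95% Poisson interval 77.6 to 104, 182 UMIs), 97.4 (61.7 to 146) in wild-type gel, 191 (176 to 208) in JupLow, 428 (409 to 448) in JupHigh and 500 (485 to 515) in wild-type 2i/LIF. Only the 2 wild-type serum/LIF libraries had overlapping intervals, which hold counting error alone. For Klf2 the log2 ratio of JupHigh over 2i/LIF was -0.22 (exact 95% interval -0.30 to -0.14), and -0.08 when cells were weighed equally. Klf4 was at 66.9 (56.1 to 79.2, 135 UMIs), 50.8 (26.3 to 88.7), 60.1 (51.5 to 69.8), 303 (287 to 320) and 238 (228 to 249) in the same order. It was high in JupHigh and 2i/LIF, with JupHigh above 2i/LIF, and its intervals overlapped among the 3 others. Klf5 was at 147 (130 to 164, 296 UMIs), 148 (103 to 206), 107 (95.1 to 119), 138 (127 to 149) and 102 (95 to 109). It was lowest in 2i/LIF and JupLow, whose intervals overlap, and the range over all 5 libraries was narrow beside those of Klf2 and Klf4.

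**Figure D2:**
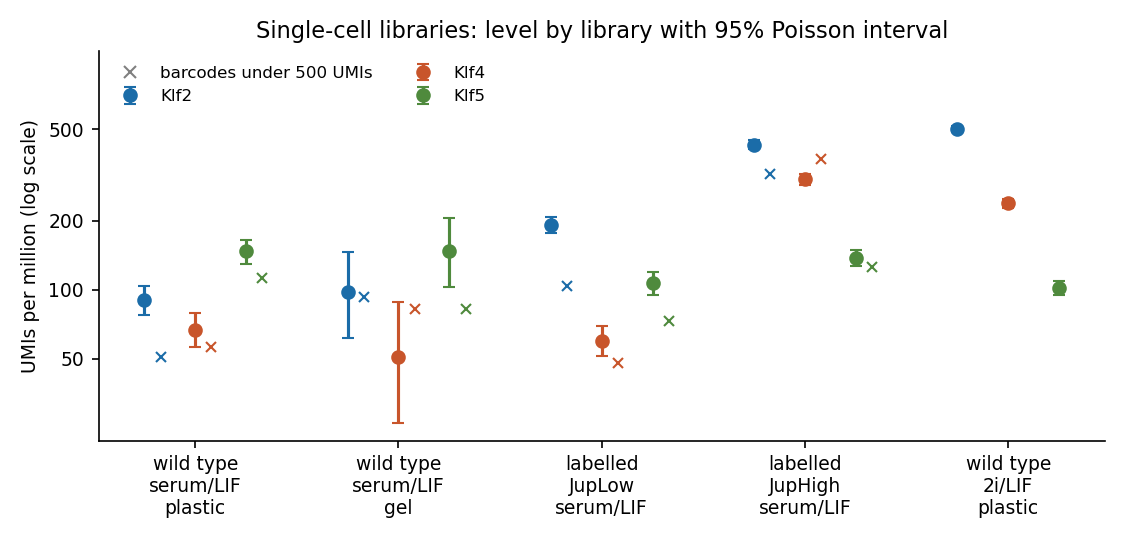
Level of each gene in CPM (log axis) in the 5 single-cell libraries, as circles with exact 95% Poisson intervals; crosses give the level in barcodes under 500 UMIs where a library has them. Klf2 and Klf4 are highest in JupHigh (428 and 303) and wild-type 2i/LIF (500 and 238), while Klf5 stays between 102 and 148.

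Changing the medium from serum/LIF to 2i/LIF on plastic went with Klf2 5.54-fold higher (log2 ratio 2.47, exact 95% interval 2.26 to 2.69) and Klf4 3.56-fold higher (1.83, 1.58 to 2.09). Klf5 was lower, at -0.53 (-0.72 to -0.33). Of 7693 genes at 20 CPM or more in either library, 11.6% were at least 2-fold higher in 2i/LIF and 15.3% at least 2-fold lower. Of the 13 other naive genes 10 of the 11 at that level were 2-fold higher (Nanog 2.70, Tfcp2l1 3.55, Esrrb 2.26, Zfp42 1.80), and 6 of 9 ERK targets were 2-fold lower (Dusp6 -3.45, Spry4 -3.02, Spred1 -2.23).

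JupHigh over JupLow, lines that differ in the labelled plakoglobin level, gave 2.33 (2.10 to 2.57) for Klf4, 1.16 (1.02 to 1.30) for Klf2 and 0.37 (0.17 to 0.57) for Klf5 on the log2 scale. In this comparison 2.63% of 6953 genes were 2-fold or more higher and 8.44% lower. Of 11 other naive genes at 20 CPM or more, 8 were 2-fold higher and 0 lower, with a median log2 ratio of 1.98. Against wild-type serum/LIF on plastic, JupHigh was 4.75-fold higher for Klf2 (2.25, 2.03 to 2.47) and 4.53-fold higher for Klf4 (2.18, 1.92 to 2.44), with Klf5 at -0.09 (-0.29 to 0.12). Over all genes measured, 7.94% were 2-fold higher and 15.0% lower. Among 12 other naive genes measured, 9 were 2-fold higher in JupHigh and 0 lower, with a median log2 ratio of 2.11. JupLow over the same wild-type library split the pair: Klf2 was 2.12-fold higher (1.09, 0.84 to 1.34) and Klf4 was not (-0.15, -0.49 to 0.18), with Klf5 at -0.46 (-0.69 to -0.22). There 6.02% of genes were 2-fold higher and 7.67% lower, and none of the 8 measured naive genes was 2-fold higher (Nanog 0.16, Esrrb 0.24, Zfp42 0.81). Without cells rich in endoderm or contractile markers, described below, the Klf4 ratio of JupLow over wild type was 0.36. These comparisons share their libraries, and whether the lines differ in parent or clone from E14 cannot be told apart from the plakoglobin label.

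JupHigh against wild-type 2i/LIF, both with high Klf2 and Klf4, gave -0.22 (-0.30 to -0.14) for Klf2, 0.35 (0.24 to 0.45) for Klf4 and 0.44 (0.28 to 0.59) for Klf5, none past 2-fold; 3.64% of genes were 2-fold higher in JupHigh and 6.48% lower. Of 7 ERK targets measured, 4 were at least 2-fold higher in JupHigh (Spry4 3.13, Etv4 2.14, Dusp6 1.63, Spred1 1.44) and 0 lower. So were 4 of 5 formative and primed genes (Foxd3 1.56, Lef1 1.56, Dnmt3b 1.22, Utf1 1.22) and 2 of 6 core pluripotency factors (Myc 2.35, Mycn 1.26), with 0 lower in either list. Of 12 other naive genes, 2 were higher and 3 lower. Gel over plastic in serum/LIF gave 0.11 (-0.58 to 0.74) for Klf2, -0.40 (-1.39 to 0.45) for Klf4 and 0.01 (-0.53 to 0.52) for Klf5. All 3 intervals include 0, with 12 to 35 UMIs per gene in the gel library. A 2-fold rise lies outside all 3. They hold only counting error from 1 library per condition and do not exclude such a rise between cultures. In this comparison 9.06% of genes were 2-fold higher and 14.2% lower.

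Marker genes of other cell types also differed between the libraries. Endoderm markers (13 genes) summed to 2311 CPM in wild-type serum/LIF on plastic, 567 in gel, 628 in JupLow, 315 in JupHigh and 264 in 2i/LIF, where Gata6 was at 0. Contractile markers (5 genes) summed to 870, 203, 1325, 22.3 and 1.09 in that order. Both sums were lowest in JupHigh and 2i/LIF, the libraries where Klf2 and Klf4 were highest, and their part in these levels was tested only by leaving out cells rich in them. Fibroblast markers stayed at 56.0 or below and endothelial markers at 24.3 or below. Without cells holding 3 or more UMIs of either of the first 2 lists (16.0% of wild-type serum/LIF plastic cells, 15.2% of JupLow, 4.46% of gel, under 1% elsewhere), wild-type Klf4 was at 50.7 CPM in place of 66.9 and Klf2 at 106 in place of 90.2. The 2i/LIF ratios were then 2.23 for Klf2 and 2.23 for Klf4, the JupHigh over wild-type ratios 2.02 and 2.58, and JupLow over wild type 1.02 for Klf2 and 0.36 for Klf4. This choice was made after the data were seen.

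The split of the UMIs of the 3 genes differed between libraries. Klf5 supplied 48.3% (95% binomial interval 44.3 to 52.3, Clopper-Pearson) in wild-type serum/LIF on plastic and 50% (37.8 to 62.2) in gel, 29.8% (27.0 to 32.7) in JupLow, 15.9% (14.7 to 17.1) in JupHigh and 12.1% (11.4 to 12.9) in 2i/LIF. Klf4 supplied 22% (18.8 to 25.5) in wild-type serum/LIF on plastic, 17.1% (9.18 to 28) in gel, 16.8% in JupLow, 34.9% (33.3 to 36.4) in JupHigh and 28.4% (27.3 to 29.4) in 2i/LIF. Klf2 supplied 29.7%, 32.9%, 53.4%, 49.3% and 59.5% in the order plastic, gel, JupLow, JupHigh, 2i/LIF. The Klf2 shares of JupLow (50.3 to 56.5) and JupHigh (47.7 to 50.9) had intervals that overlapped at their ends, while their Klf4 intervals (14.5 to 19.2 in JupLow) were far apart. UMIs count tagged ends and are not divided by length, so only the shift between libraries is read here.

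**Figure D3:**
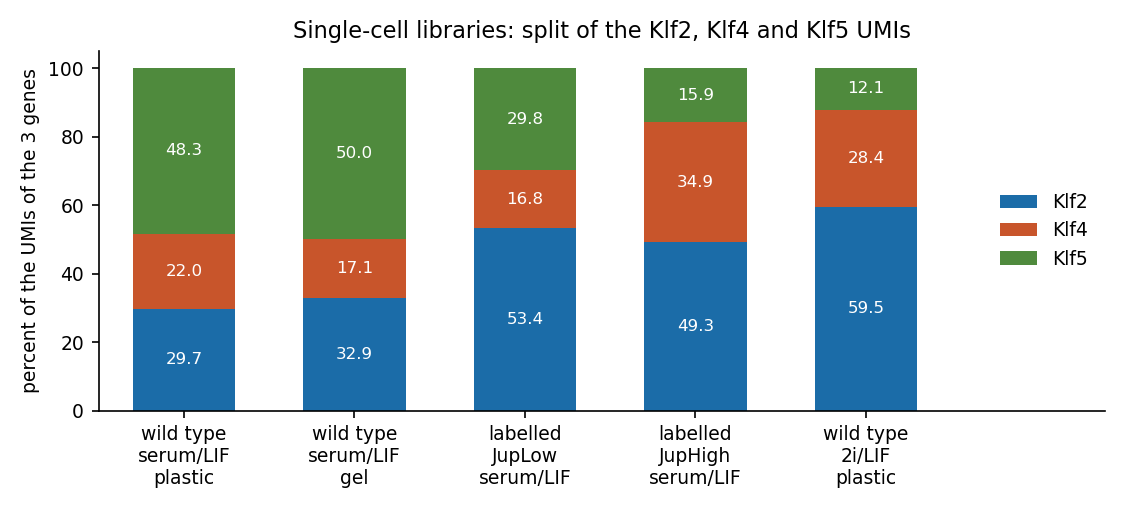
Percent of the summed Klf2, Klf4 and Klf5 UMIs that came from each gene, by single-cell library; the printed values are the shares. Klf5 is the largest share in both wild-type serum/LIF libraries (48.3% and 50%) and the smallest in JupHigh (15.9%) and wild-type 2i/LIF (12.1%).

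After each cell was thinned to 1000 UMIs, Klf2 was seen in 6.90% of wild-type serum/LIF plastic cells (5.16 to 8.99), 5.36% in gel (1.99 to 11.3), 13.6% in JupLow (11.7 to 15.7), 29.4% in JupHigh (27.5 to 31.4) and 32.8% in 2i/LIF (31.1 to 34.5). Unthinned shares were 14.2%, 13.4%, 23.8%, 45.2% and 55.6%. Klf4 was seen in 5.79%, 5.36%, 4.25%, 24.5% and 19.2% of thinned cells in the same order (unthinned 13.7%, 8.04%, 9.50%, 40% and 41.1%), so thinning put JupHigh (22.7 to 26.4) above 2i/LIF (17.8 to 20.7), as its CPM did. Klf5 was seen in 12%, 10.7%, 8.25%, 12.2% and 8.58% (unthinned 28.6%, 23.2%, 20.8%, 22.2% and 23.5%). The thinned mean of Klf2 in cells with a UMI was 1.20 in wild-type serum/LIF on plastic, 1.33 in gel (6 such cells), 1.25 in JupLow and 1.39 in both JupHigh and 2i/LIF. The variance over mean of the thinned counts, which is 1 for a Poisson draw, was 1.35 in wild-type serum/LIF on plastic, 1.42 in JupLow, 1.36 in JupHigh and 1.28 in 2i/LIF for Klf2. It was 1.11, 1.48, 1.16 and 1.12 for Klf4 and 1.14, 0.975, 1.06 and 1.02 for Klf5. Klf2 had the highest value in these libraries except JupLow, where Klf4 did, from 51 cells with a UMI. The gel library gave 1.69, 0.955 and 1.37 from 6 to 12 cells with a UMI. This value can rise with the mean thinned count, which in 2i/LIF was 0.457 for Klf2, 0.228 for Klf4 and 0.0910 for Klf5. The genes are therefore not ranked by unevenness. Free RNA in the droplets can add UMIs: barcodes under 500 UMIs held Klf2 at 51.1 CPM in wild-type serum/LIF on plastic, 104 in JupLow and 318 in JupHigh, and Klf4 at 56.2, 47.8 and 373. Klf5 in such barcodes was at 112, 73.4 and 126 in the same order, where the cells were at 147, 107 and 138. In gel such barcodes held Klf2 at 93.1, Klf4 at 82.2 (46.0 to 136) and Klf5 at 82.2. The gel cells were at 97.4, 50.8 and 148. The 2i/LIF table has 1 such barcode with 2 UMIs and so gives no such level. Their part in the shares was not tested; these barcodes may also be shallow cells.

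At 1000 UMIs per cell, 77.4% of wild-type serum/LIF plastic cells, 81.2% of gel cells and 77.0% of JupLow cells held none of the 3 genes, against 49.3% in JupHigh and 51.0% in 2i/LIF. All 3 were seen in 0 of 725 (which allows a share of up to 0.414%), 0 of 112 (up to 2.68%), 2 of 1200, 30 of 2153 and 20 of 2889 cells. Klf2 and Klf4 occurred together in 190 JupHigh cells (8.82%, 7.66 to 10.1) where the product of their shares gives 7.21%, and in 207 2i/LIF cells (7.17%, 6.25 to 8.17) where it gives 6.31%. In JupLow they shared 14 cells (1.17%, 0.639 to 1.95, product 0.577%), and Klf4 was seen in 8.59% of JupLow cells with Klf2 and 3.57% of those without. In wild-type serum/LIF on plastic 2 cells held both (0.276%, 0.0334 to 0.993), where the product gives 0.400%, and in gel 0 of 112 did. A single draw holds few such cells in the smaller libraries, so ratios of the joint share to the product are also given over all possible draws. For Klf2 and Klf4 the ratio in the draw was 2.02 in JupLow, 0.69 in wild-type serum/LIF on plastic, 1.14 in 2i/LIF and 1.22 in JupHigh, and over all draws 1.84, 1.39, 1.17 and 1.15, with 2.33 in gel. Over cells with at least 2000 UMIs, thinned to that depth, the ratio over all draws was 1.65, 1.72, 1.08 and 1.03, with 3.61 in gel from 45 cells. So the wild-type serum/LIF value on plastic went to the other side of 1 with the draw. For Klf2 and Klf5 the ratio over all draws at 1000 and 2000 UMIs was 1.18 and 1.08 in JupLow, 1.24 and 1.16 in wild-type serum/LIF on plastic, 1.25 and 1.11 in 2i/LIF, 1.33 and 1.17 in JupHigh, and 2.07 and 2.06 in gel. For Klf4 and Klf5 it was 1.03 and 0.83, 1.09 and 1.29, 1.21 and 1.08, 1.11 and 1.15, and 0.99 and 0.94 in the same order. None of these ratios carries a test.

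Cells were then grouped by their own UMIs of the 13 other naive genes, which hold none of Klf2, Klf4 and Klf5. That list, like the members, was chosen with earlier results of these data known. In JupLow, Klf2 was seen in 7.56% of 767 cells with no such UMI (5.79 to 9.67), 20.8% of 361 with 1 to 2 (16.7 to 25.3) and 41.7% of 72 with 3 or more (30.2 to 53.9). Klf4 in the same cells was at 3.00%, 6.09% and 8.33%, and Klf5 at 9.13%, 6.09% and 9.72%, with no order. The Klf2 share in naive-rich JupLow cells thus reached that of naive-rich 2i/LIF cells (41.4%, 38.3 to 44.6), while Klf4 there (8.33%, 3.12 to 17.3) lay below 2i/LIF (23.7%, 21.1 to 26.6) and JupHigh (27.8%, 24.7 to 31.1). In wild-type serum/LIF on plastic Klf2 went from 4.69% to 21.2% (8.98 to 38.9) of 33 naive-rich cells. In 2i/LIF and JupHigh all 3 genes were seen more often in naive-rich cells, Klf5 at 5.98% and 10.1% in 2i/LIF and at 7% and 16.4% in JupHigh. These classes are ranges of a count at fixed depth, not cell types.

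**Figure D4:**
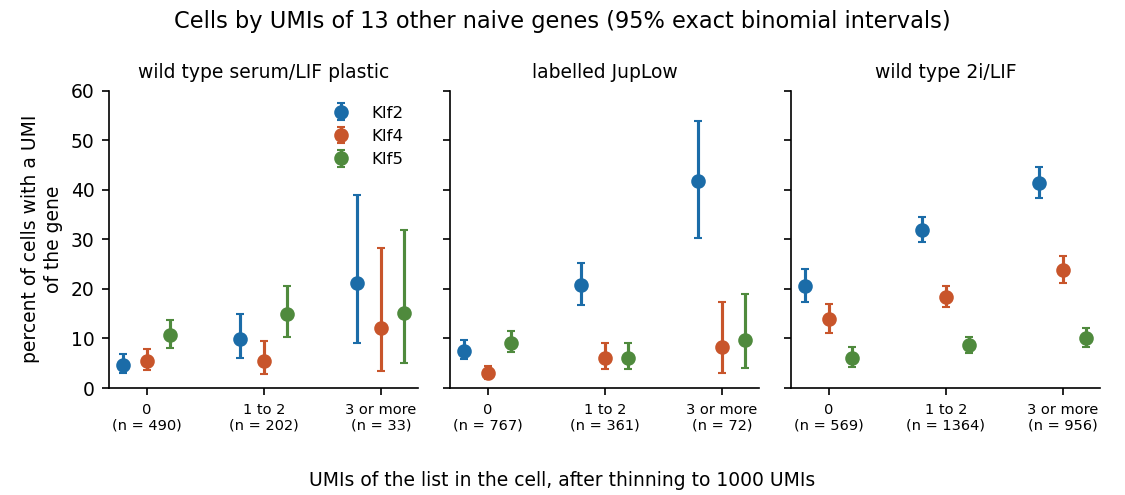
Percent of cells with a UMI of each gene, with exact 95% binomial intervals, by UMIs of 13 other naive genes in the cell, all after thinning to 1000 UMIs; n is the number of cells. In JupLow Klf2 goes from 7.56% to 41.7% while Klf5 stays between 6.09% and 9.72%.

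Cells with endoderm markers, genes of the extraembryonic lineage that serum cultures can hold, separated the 3 genes differently. In wild-type serum/LIF on plastic, Klf2 was seen in 0 of 85 cells with 3 or more such UMIs (up to 3.53%, exact interval 0 to 4.25). It was seen in 8.99% of 378 cells with none (6.31 to 12.3). Klf4 was seen in 21.2% of the 85 (13.1 to 31.4) and 4.50% of the 378 (2.64 to 7.10), and Klf5 in 20% (12.1 to 30.1) and 13% (9.75 to 16.8). The 262 cells with 1 to 2 such UMIs did not lie between these classes for Klf4 (2.67%, 1.08 to 5.43) or Klf5 (8.02%, 5.03 to 12). Before thinning, at median depths of 2231 and 2496 UMIs, the 85 cells held 1 Klf2, 49 Klf4 and 47 Klf5 UMIs. These limits concern cells with a UMI, not cells expressing the gene. In JupLow no thinned Klf2 UMI was seen in 60 such cells (up to 5%, exact interval 0 to 5.96). Before thinning 6 of them held 1. Klf4 there was at 6.67% (1.85 to 16.2) against 4.92% of 792 cells without the markers, a difference within the intervals. Over all JupLow cells, 1064 of the 1807 UMIs of this list were Sparc, 254 Lamb1 and 212 Col4a1. Gata6 was at 16, Gata4 at 5 and Sox17 at 1, so these 60 cells are named only by the list. Of the 85 cells 24 held exactly 3 such UMIs, and 63 cells lay just below at 2. Contractile-rich cells gave Klf2 in 0 of 40 in wild-type serum/LIF on plastic (up to 7.5%, exact interval 0 to 8.81). Cells there with no contractile UMI were at 8.07%, which lies within the exact interval. In JupLow these classes were at 5.37% of 149 (2.35 to 10.3) and 15.9%. By formative and primed genes, Klf4 in wild-type serum/LIF on plastic was seen in 1 of 136 cells with 3 or more such UMIs (0.735%, 0.0186 to 4.03) and in 8.94% of 246 with none (5.69 to 13.2), while Klf2 was at 11% and 5.69% and Klf5 at 14.7% and 10.2%, each with overlapping intervals. Klf4 in the same classes was at 0 of 26 cells (up to 11.5%) and 3 of 30 in gel, 2.73% and 4.24% in JupLow, 29.4% and 24.2% in JupHigh, and 24.0% and 18.3% in 2i/LIF. The intervals of each of these Klf4 pairs overlap. Of the 42 wild-type serum/LIF plastic cells with Klf4, 18 were among the 85 endoderm-rich cells. How the endoderm and formative classes share cells was not tested. Klf2 was seen more often in the formative-rich cells of JupLow (18.8%, 14.2 to 24.1, against 9.81%, 7 to 13.3) and of JupHigh (40.6%, 32.4 to 49.1, against 25.8%, 23.1 to 28.6), so in both libraries its share was higher in cells rich in either list. In 2i/LIF it was at 28% and 32.7% and in gel in 3 of 26 and 1 of 30 cells, with overlapping intervals. Klf5 was at 8.98% and 6.10% in JupLow, 15.4% and 9.97% in JupHigh, 0 of 25 cells and 9.08% in 2i/LIF, and 6 of 26 and 5 of 30 cells in gel, also with overlapping intervals. No difference between libraries was tested. Doublets were not removed.

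**Figure D5:**
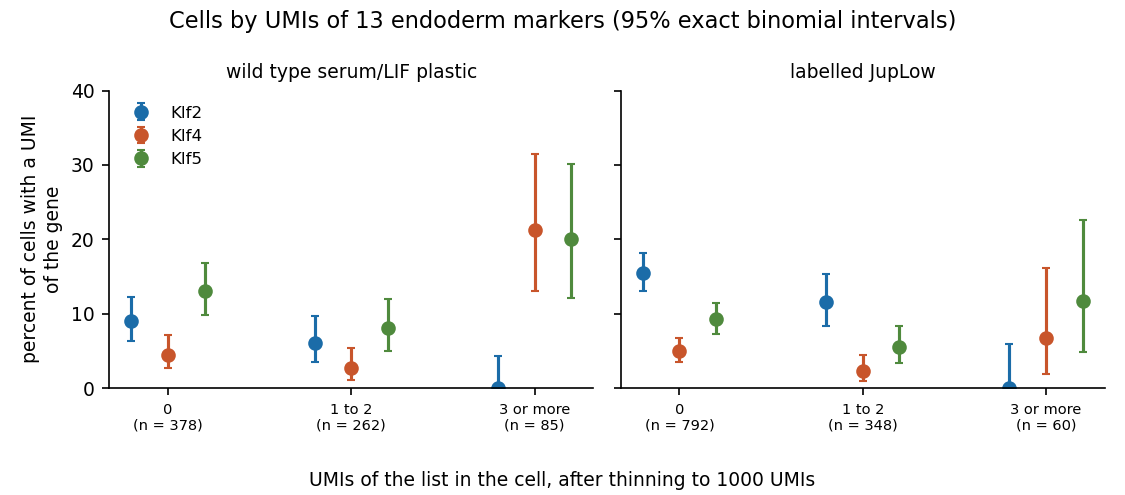
Percent of cells with a UMI of each gene, with exact 95% binomial intervals, by UMIs of 13 endoderm markers in the cell, after thinning to 1000 UMIs; n is the number of cells. In wild-type serum/LIF on plastic Klf4 is at 21.2% and Klf2 at 0 in the 85 cells with 3 or more marker UMIs.

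Over the rest of the family in single cells, 14 KLF and SP genes were measured in 2i/LIF over serum/LIF on plastic. Of these 4 were at least 2-fold higher in 2i/LIF and 3 lower, with a median log2 ratio of -0.02. Over all genes measured, 11.6% were 2-fold higher and 15.3% lower. Sp5, a Wnt-responsive gene, was higher in 2i/LIF (2.93) and in JupHigh over wild type (3.15), at 8.92, 68.1 and 79.3 CPM in wild-type serum/LIF, 2i/LIF and JupHigh. Klf6 and Klf7 went the other way from Klf2 and Klf4: Klf6 was at 139 in wild-type serum/LIF on plastic, 40.2 in 2i/LIF and 34.6 in JupHigh, and Klf7 at 64.9, 11.7 and 17.9. Klf9, the most abundant of the list in JupHigh at 444, and Klf3 at 74.9 were within 2-fold of wild type (0.58 and 0.31). Klf8, Klf15 and Sp2 were the others higher in 2i/LIF (1.85, 3.75 and 1.06), and Klf12 the other lower (-1.73); these 4 were named after their values were seen.

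Likeness was measured by the root-mean-square difference of centred log2(CPM + 10) over the 5 single-cell libraries. It covered 4698 genes at 50 CPM or more in at least 1 library. The added 10 CPM flattens the folds of genes at low CPM, so a gene listed as close can differ in fold. For 2i/LIF over serum/LIF on plastic, Sp5 had a log2 ratio of 2.93 and Klf4 of 1.83. By this measure the genes closest to Klf2 were Laptm5 (0.205), Spp1 (0.240), Morc1 (0.247), Ildr1 (0.263) and Tdh (0.269). Closest to Klf4 were Cobl (0.119), Esrrb (0.179), Nr5a2 (0.191), Sp5 (0.229) and Kat6b (0.242), of which Esrrb and Nr5a2 belong to the naive list. Esrrb was at 66.4, 50.8, 78.2, 308 and 318 CPM in the order plastic, gel, JupLow, JupHigh, 2i/LIF, beside the Klf4 values above. Closest to Klf5 were Ncl (0.077), the predicted gene Gm13456 (0.089), Utp6 (0.090), Gtf3c3 (0.091) and Hspa14 (0.092). Over the 6 bulk libraries, on centred log2(value + 0.5), the closest were Rnf44 (0.144), Tjap1 (0.215), Slc7a1 (0.218), Axin1 (0.219) and Wbp11 (0.252) for Klf2. For Klf4 they were Pcgf2 (0.081), Arhgap17 (0.102), Zfp664 (0.115), Supt5 (0.123) and Bcam (0.132), and for Klf5 Ykt6 (0.093), Pprc1 (0.10), Ephb4 (0.140), Prmt1 (0.148) and Prr14l (0.153). No gene is on both lists of the same member.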

How the data were processed

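The members and gene lists were chosen with earlier results of these data known. The 6 bulk columns hold a signal deposited by the authors: gene counts divided by 1 factor per library, from which whole reads were recovered (100% of values whole within 0.01 reads). The single-cell tables are raw UMI counts deposited by the authors per barcode and gene, 1 table per condition. The submitters' processing notes name FastQC, STAR, featureCounts, DESeq2 and Scanpy and the builds mm10 and GRCm38, without roles. Bulk values were tested with limma 3.58.1 (R 4.3.3) with an intensity trend on log2(value + 0.5), two-sided, over 7878 genes passing the filterByExpr function of edgeR 4.0.16, with Benjamini-Hochberg adjustment. edgeR and DESeq2 1.42.0 on recovered reads were alternatives; edgeR called 3158 genes. Library pairs of a group differed by 1.66 to 2.36 in chi-square per degree of freedom, so none was counted as a duplicate. Single-cell barcodes with 8 or more G at both ends were left out, and cells were barcodes with 1000 UMIs or more, with no upper limit. Totals per library were 236195 to 8284254 UMIs. Levels are CPM (summed UMIs scaled to the library total), with exact Poisson, conditional binomial and Clopper-Pearson 95% intervals (scipy 1.17.1). Limits for a 0 are 3 counts of the total, and those given lie below the exact upper bounds. Cells were thinned by seeded hypergeometric draws. The scripts were tested on simulated data. Named genes were the members, Jup, genes among the 8 of each list with the highest mean level in that assay, and the 5 genes closest to each member; called genes outside this rule are marked as named after their values were seen; sequences came from RefSeq, which matched 2 of 3 members. The gel table's 1 incomplete row was left out.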

Additional observations from a re-analysis of the deposited data

Results flagged for a closer look

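Klf4 differed in direction between the 2 comparisons of gel with plastic. In the 2i/LIF bulk libraries Klf4 was higher in gel, with a log2 difference of 1.84 (limma, adjusted p = 1.72e-06). In serum/LIF single cells the log2 ratio was -0.40, from 12 Klf4 UMIs in the gel library, and its interval of -1.39 to 0.45 includes 0. The difference between them was not tested, since medium, assay, cell line and number of libraries differ together. Without cells rich in endoderm or contractile markers the single-cell ratio was 0.05, and with barcodes of at least 2000 UMIs it was -0.96.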

How the results depend on the processing

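All 45 alternatives for the 3 bulk fold changes kept their direction and side of the threshold, over 1.91 to 2.32 for Klf2, 1.72 to 1.96 for Klf4 and 1.21 to 1.72 for Klf5; the largest adjusted p was 0.00369 (limma, Klf5 without gel replicate 1). The count of genes called ranged from 2188 (DESeq2) to 3158 (edgeR) around 2906, and from 2361 to 2833 leaving out each library. The replicate block gave 2988 calls and changed no call of the 3 genes; same-numbered libraries did not deviate together (correlations -0.05, 0.02 and 0.02), so the numbers were not taken as pairs; these checks use the title numbers, and the description of plastic replicate 2 gives 3. Of 126 alternatives for the single-cell ratios, 111 moved the value by less than its interval, and none changed a called sign. With TMM factors, 2i/LIF over serum/LIF became 2.72 for Klf2 and -0.27 for Klf5, and JupHigh over wild type 2.52 for Klf2, 2.46 for Klf4 and 0.19 for Klf5. With barcodes of at least 500 UMIs, JupHigh over JupLow was 1.39 for Klf2, JupHigh over wild type 0.13 for Klf5, and JupHigh over 2i/LIF 0.46 for Klf4. Weighing cells equally gave -0.08 for Klf2 in JupHigh over 2i/LIF. Without cells rich in endoderm or contractile markers, a choice made after seeing the data, 2i/LIF over serum/LIF was 2.23 for Klf2 and for Klf4, JupHigh over JupLow 0.99 for Klf2, JupHigh over wild type 2.02 for Klf2 and 2.58 for Klf4, and JupLow over wild type 0.36 for Klf4, where the main value was -0.15. The cause was not tested. Shares of cells stayed within their intervals over all draws. They differed in most libraries unthinned and at 2000 UMIs, where both the depth and the cells kept change; Klf4 in gel was then seen in 0 of 45 cells. The gel values rest on 112 cells of a table held in part.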
